A study of Mus musculus with 17 samples.

Results

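The comparison described here is that of hippocampal RNA from CBP-ifKO and control mice killed 45 min after a last injection of pentylenetetrazol (PTZ), a blocker of GABAA receptors that provokes seizures. It holds 5 of the 17 libraries of the kindling experiment, namely 3 from CBP-ifKO mice and 2 from controls, taken by their group labels. A further column of counts in the table could be matched to no sample and was left out. The mice were on a C57BL/6 background by the labels, given as C57BL/6J in the methods, and aged 3 to 6 months. The methods describe the saline-treated mice of this experiment as males sampled individually, and the sources used here do not state this for the PTZ45 mice. CBP-ifKO mice carry floxed Crebbp alleles and Camk2a-creERT2, a tamoxifen-dependent recombinase driven by a promoter of forebrain excitatory neurons. Interneurons, glia and vascular cells of these mice therefore keep an intact Crebbp gene, and the recombined allele still gives a truncated protein without the acetyltransferase domain. Controls were littermates with floxed alleles, and both genotypes received 5 intragastric administrations of tamoxifen. The study's methods give the controls as free of creERT2, although a free-text label of the control samples names Camk2a_creERT2. In the PTZ45 groups the mice had gone through kindling, a series of PTZ injections, and then received 45 mg/kg PTZ. The other 12 libraries, used here as the resting state, came from mice given saline on the last day, either never kindled (Sal, 3 per genotype) or kindled (PTZ0, 3 per genotype). The aim of the comparison was to separate genes that were already different at rest from genes that differed only after the seizure-inducing drug.

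CBP is a coactivator and lysine acetyltransferase that is recruited to promoters and enhancers by transcription factors, among them CREB when phosphorylated after calcium entry. In neurons, strong synaptic activity switches on immediate early genes within minutes, without new protein synthesis. Many encode transcription factors such as FOS and EGR1, and these factors in turn activate slower effector genes such as neuropeptides and growth factors. The relative p300, encoded by Ep300, shares most domains of CBP.

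The targeted gene was read at reduced level in every CBP-ifKO library. Crebbp (GRCm38, chr16:4081328-4213997) stood at 2429 and 2248 normalized counts in the Control PTZ45 libraries and at 1222, 1276 and 1061 in the CBP-ifKO PTZ45 libraries. The groups did not overlap, and the log2 fold change was -0.98 ± 0.10 (SE; DESeq2 Wald test, Benjamini-Hochberg adjusted p = 1.84e-18). At rest it was -0.79 (adjusted p = 1.9e-27). Ep300 had 1329 and 1071 normalized counts in Control PTZ45 and 1507, 1408 and 1033 in CBP-ifKO PTZ45, so that the groups overlapped (0.13 ± 0.24, adjusted p = 0.937). Esr1, part of whose coding sequence is carried by the creERT2 transgene, was read at 77.8 and 56.5 in Control PTZ45 and at 743, 821 and 935 in CBP-ifKO PTZ45, with 41 to 65.7 in the 6 resting controls.

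Library depth ran from 10439536 to 14483561 assigned reads in PTZ45 and from 5831992 to 18735643 at rest. Normalized counts are reads divided by a size factor per library, and folds below are CBP-ifKO over control on the log2 scale. By the labels, Control PTZ45 and CBP-ifKO PTZ45 were sequenced on different lanes, so within PTZ45 the lane and the genotype cannot be told apart, and Control PTZ45 was on another lane than the resting controls as well. At rest the controls shared a lane that held no CBP-ifKO library, so there too lane and genotype cannot be told apart. Seizures were scored in the study, but the scores were not analysed here. The genotypes cannot be taken to have had like seizures, so a difference in seizures and one in transcriptional response cannot be told apart. As the tissue is bulk hippocampus, fewer cells of a type and less RNA per cell cannot be told apart either. With 2 control libraries, p-values measure the spread between these few libraries.

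After PTZ the genotypes differed mainly by genes that were lower in CBP-ifKO mice. Of 15224 genes tested, 430 were called lower (2.82%) and 38 higher (0.25%), and 96 of the former and 12 of the latter differed by at least 2-fold. Among the immediate early genes, Fosb was 32.2-fold lower, Npas4 22.8-fold, Arl4d 12.9-fold and Fos 11.6-fold. In a gene list of immediate early transcription factors, 16 of the 25 tested members were called lower and none higher. The median log2 fold change over all tested genes was 0.0025, that of the genes called lower -0.52. All 430 genes had every CBP-ifKO library below both control libraries, a pattern seen in 18.3% of all genes tested. The count depended on single libraries: it fell to 143 without Control PTZ45 replicate 1, 223 without Control PTZ45 replicate 2, 254 and 213 without CBP-ifKO PTZ45 replicates 1 and 2, and 346 without replicate 3, whereas the higher genes numbered between 6 and 19.

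To split these genes, the same genotype contrast was fitted in the 12 resting libraries, which share no library with PTZ45, and an interaction contrast tested whether the difference after PTZ departed from that at rest. At rest 1573 of 17398 genes were called lower (9.04%) and 962 higher (5.53%). The interaction called 87 of 21731 genes with a lower value after PTZ than at rest (0.4%) and 1 with a higher value. By these tests the 430 lower genes fell into 285 that were already lower at rest and whose interaction was not called (66.3%), 64 that were not called at rest and whose interaction was called (14.9%), 20 that were called in both (4.65%), and 61 that remained unresolved (14.2%). Genes already lower at rest differed modestly, by a median of -0.46 after PTZ and -0.37 at rest. The 64 genes that differed only after PTZ had a median of -1.57 after PTZ and of -0.05 at rest. Since the classes were formed from these same fits, such medians are partly set by the class rules. In 48 of these 64, the 95% interval of the resting difference lay within 1.5-fold, and in 3 low-count genes DESeq2 gave no adjusted p at rest. For the interaction itself, the interval lay within 1.5-fold in 1 of these 64 genes and in 238 of the 285. Without Control PTZ45 replicate 1 the class lower only after PTZ held 33 genes, all of them among the 64, and the interaction called 54 genes, whereas the class held 47 to 55 when any other PTZ45 library was left out. The class already lower at rest held 82 and 127 genes without Control PTZ45 replicate 1 or 2, 154, 117 and 234 without CBP-ifKO PTZ45 replicate 1, 2 or 3.

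**Figure D1:**
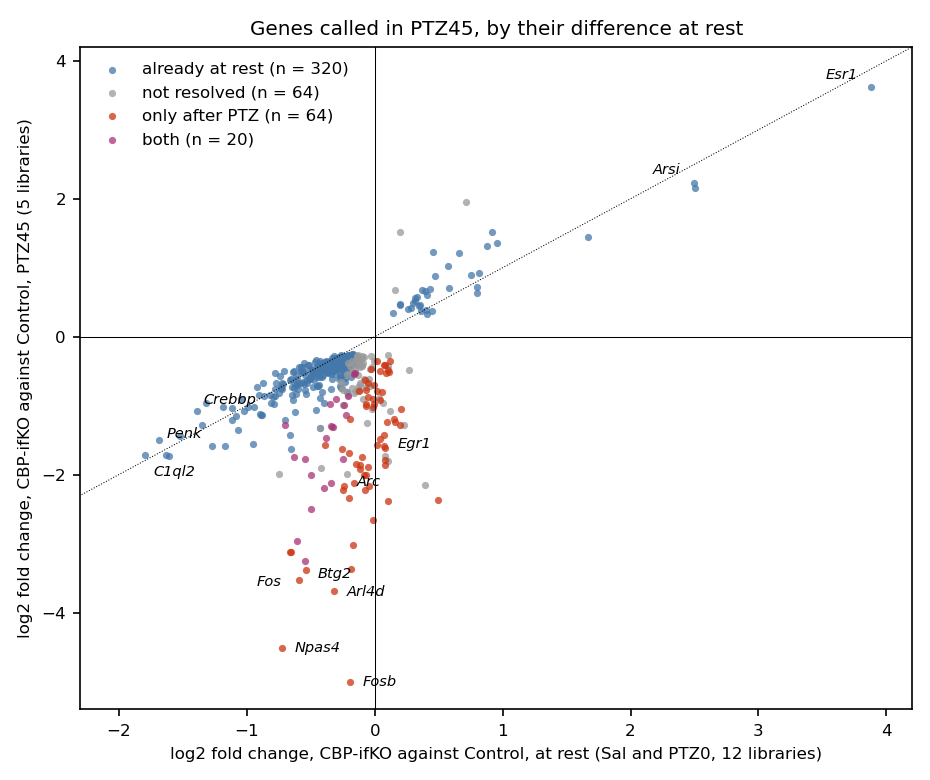
Log2 fold change of CBP-ifKO over control at rest (x axis, 12 libraries) and after PTZ (y axis, 5 libraries), each point being a gene called in PTZ45 in either direction and coloured by class, with a dotted line of equal differences. The classes were formed from these same fits, so genes already different at rest lie near that line by rule. The 64 genes lower only after PTZ lie under it by the same rule and reach down to -5.01 for Fosb.

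The 64 genes that differed only after PTZ held 7 of the list of immediate early transcription factors, with Fosb and Npas4 at the lowest values of the class. Fosb (chr7:19302696-19310051), which encodes a partner of JUN in the AP-1 dimer, had 2154 and 1633 normalized counts in Control PTZ45 and 41, 53 and 82.5 in CBP-ifKO PTZ45. At rest it lay between 19 and 44.3 in controls and between 16.6 and 24.4 in CBP-ifKO mice, so 2 of the 3 CBP-ifKO PTZ45 libraries were above every resting library, the remaining one was above all but 1, and all were far under Control PTZ45. Its log2 fold change was -5.01 ± 0.40 (adjusted p = 9.96e-34) after PTZ and -0.20 (adjusted p = 0.68) at rest, and the interaction was -4.83 (adjusted p = 2.23e-30). Npas4 (chr19:4984355-4990316), a neuron-specific factor that responds to calcium entry, had 3946 and 3293 in Control PTZ45 and 109, 154 and 212 in CBP-ifKO PTZ45 (-4.51 ± 0.35, adjusted p = 3.46e-34). Its resting levels were 28.1 to 75.9 in controls and 11.5 to 42.6 in CBP-ifKO mice (-0.72, adjusted p = 0.0623), so a lower resting level was not called but its interval, -1.27 to -0.17, did not include 0. Fos (chr12:85473890-85477273) had 2915 and 2483 against 163, 250 and 288 (-3.53 ± 0.30, adjusted p = 4.08e-29), with 23.7 to 62.4 and 13.4 to 34 at rest (-0.59, adjusted p = 0.1, interval -1.09 to -0.10). For these 3 genes each CBP-ifKO PTZ45 library was above the mean of the resting CBP-ifKO libraries and none came near a Control PTZ45 library.

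The EGR family of zinc-finger factors was affected to unequal extents. Egr1 differed less than Egr2 and Egr4. Egr1 had 1854 and 1474 normalized counts in Control PTZ45 and 527, 540 and 571 in CBP-ifKO PTZ45 (-1.61 ± 0.12, adjusted p = 2.94e-37), with overlapping resting ranges of 219 to 391 and 237 to 407. Egr2 had 426 and 335 against 23.1, 37 and 49.5 (-3.39 ± 0.25, adjusted p = 6.82e-38). Egr4 had 279 and 234 against 28.4, 22 and 46 (-3.01 ± 0.28, adjusted p = 2.21e-24), and 2 of these 3 values lay in the resting range of controls, 21.8 to 33.4. Egr3, the remaining member, was also called lower at rest and is given with that class. Ier2, an immediate early gene with a nuclear product, had 162 and 135 against 26.3, 43 and 41.3 (-2.01 ± 0.30, adjusted p = 4.31e-09).

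**Figure D2:**
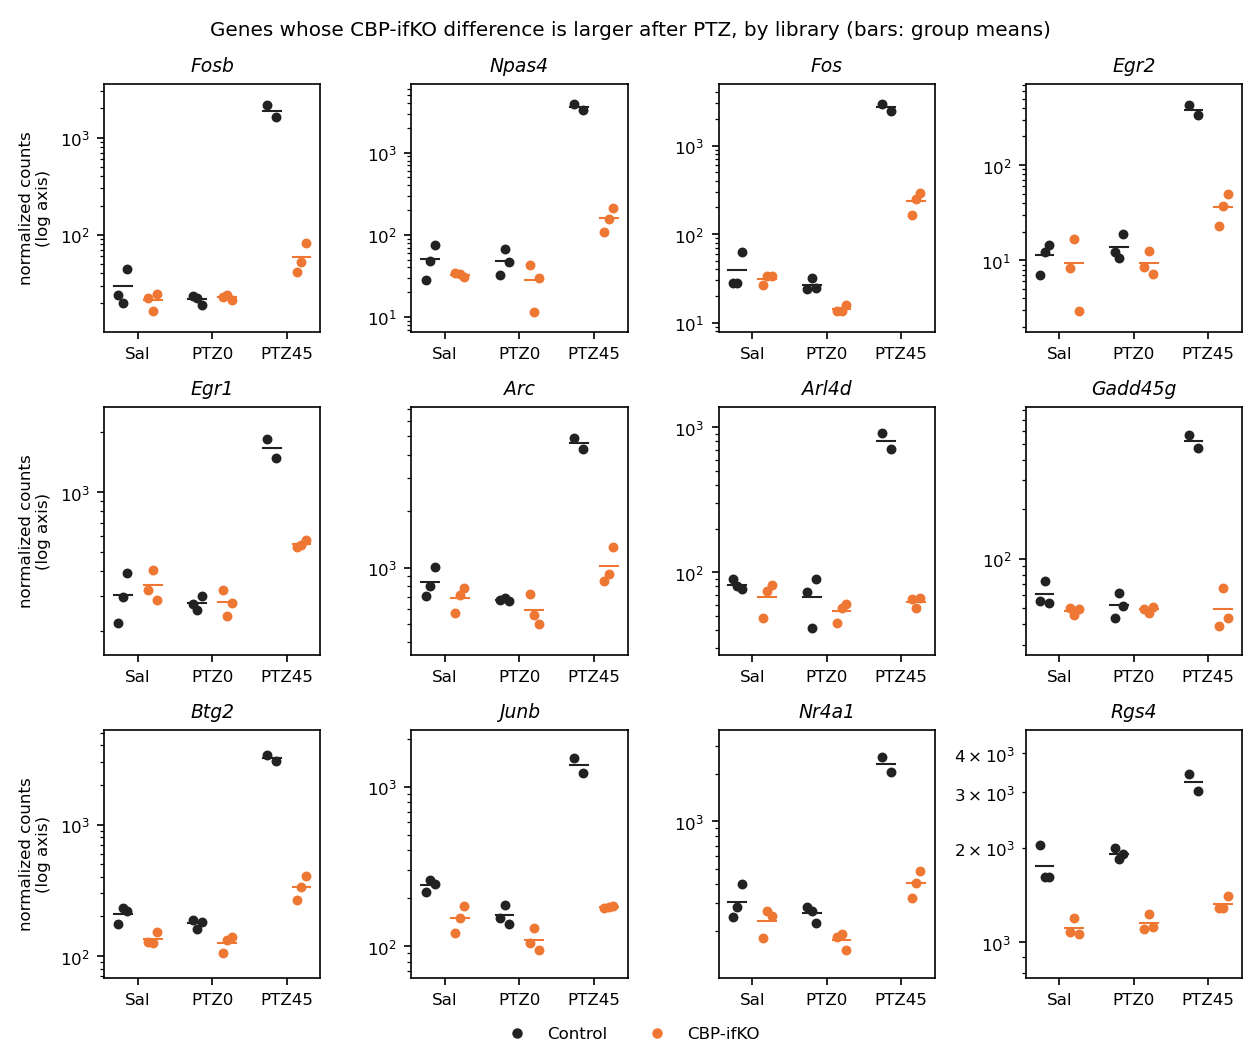
Normalized counts on a log axis in each of the 17 libraries, by treatment and genotype, each point being a library and each bar a group mean, for 8 genes that differed only after PTZ and, in the bottom row, 4 called in both fits. For each gene the 2 Control PTZ45 points stand above every other library, and the 3 CBP-ifKO PTZ45 points lie far under them, at 41 to 82.5 for Fosb and 163 to 288 for Fos.

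Genes with roles in growth arrest and stress showed the same split. Gadd45g, which encodes a small stress sensor, had 562 and 469 normalized counts in Control PTZ45 and 38.9, 67 and 43.6 in CBP-ifKO PTZ45, of which 1 lay within the 43.9 to 73.9 of resting controls and 2 just under it (-3.36 ± 0.22, adjusted p = 1.47e-50). Gadd45b was lower by -1.58 ± 0.26 (adjusted p = 4.83e-07). Ppp1r15a, a subunit that directs protein phosphatase to eIF2-alpha, had 357 and 419 against 91.5, 122 and 97.9 (-1.90 ± 0.19, adjusted p = 3.51e-20). Mcl1, an anti-apoptotic member of the BCL2 family, differed least among the list members of this class, with 1265 and 1320 against 998, 883 and 1029 (-0.41 ± 0.11, adjusted p = 0.00645), and it lost its call in 3 of the 5 fits that left out a PTZ45 library. Cenpa, the centromeric histone H3 variant, had 151 and 113 against 13.7, 9 and 23.6 (-3.12 ± 0.38, adjusted p = 1.03e-13).

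Among genes with products at the synapse or in membrane traffic, Arc and Arl4d differed only after PTZ. Arc, a cytoskeletal protein of dendrites that takes part in AMPA receptor removal, was already well expressed at rest, at 663 to 1011 normalized counts in controls and 500 to 780 in CBP-ifKO mice (-0.24, adjusted p = 0.103). After PTZ it stood at 4921 and 4272 in controls and at 843, 929 and 1289 in CBP-ifKO mice (-2.17 ± 0.26, adjusted p = 1.95e-14). Arl4d (chr11:101665541-101667832), a small GTPase of the ARF family, had 912 and 709 in Control PTZ45 and 65.2, 57 and 66 in CBP-ifKO PTZ45. All 3 of the latter lay inside the resting range of CBP-ifKO mice, 45 to 81.3, and of controls, 41 to 90.4 (-3.69 ± 0.19 after PTZ, adjusted p = 1.53e-84, and -0.32 at rest, adjusted p = 0.26). Pcdh8, an activity-regulated protocadherin that was chosen after its values were seen, had 859 and 563 against 182, 218 and 186 (-1.86 ± 0.18, adjusted p = 2.32e-22).

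Some abundant genes of general function also differed only after PTZ, though by less, and were likewise picked after their values were seen. Hnrnpa2b1, an RNA-binding protein, had 6152 and 6670 normalized counts in Control PTZ45 and 3891, 3472 and 3741 in CBP-ifKO PTZ45, with 3149 to 3820 in the resting CBP-ifKO libraries and 3184 to 3724 in the resting controls (-0.79 ± 0.09, adjusted p = 1.1e-17). Ifrd1 had 953 and 897 against 455, 434 and 496 (-1.002 ± 0.12, adjusted p = 2.67e-14). Irs2, an adaptor of insulin signalling, had 1264 and 980 against 627, 674 and 674 (-0.77 ± 0.13, adjusted p = 2.5e-07). Tpt1 read 236 and 259 in Control PTZ45 and 12.5 to 61.3 in the other 15 libraries, but it belongs to a family with many near-identical copies, so its count is uncertain.

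The sequence upstream of the transcription start is shown for genes on which the results turn, because the cyclic AMP response element (CRE), TGACGTCA, is the site bound by CREB, the factor that recruits CBP. Each line gives the 250 bases before the RefSeq start (GRCm38.p6), 5′ to 3′ on the strand of the gene, with capitals marking TGACGTCA or its shorter core TGACG on either strand. Btg2, Dusp1 and Arl4d hold the full element, with its first base 166, 143 and 26 bases before the start. Fos, Npas4, Nr4a1 and Fosb hold cores without the full palindrome in this window, which lies at chr12:85473640-85473889 for Fos, chr19:4989972-4990221 for Npas4, chr15:101266596-101266845 for Nr4a1 and chr7:19310046-19310295 for Fosb. Camk1g and C1ql2, both already lower at rest, hold neither and are shown for contrast. They do not stand for their whole class, of which Bdnf and Fibcd1, for example, hold the core before a RefSeq start. The windows of the remaining genes are chr1:134079156-134079405 for Btg2, chr17:26508473-26508722 for Dusp1, chr11:101665291-101665540 for Arl4d, chr1:193370283-193370532 for Camk1g and chr1:120340332-120340581 for C1ql2, of which those of Fosb, Npas4, Btg2, Dusp1 and Camk1g are on the minus strand.
Btg2: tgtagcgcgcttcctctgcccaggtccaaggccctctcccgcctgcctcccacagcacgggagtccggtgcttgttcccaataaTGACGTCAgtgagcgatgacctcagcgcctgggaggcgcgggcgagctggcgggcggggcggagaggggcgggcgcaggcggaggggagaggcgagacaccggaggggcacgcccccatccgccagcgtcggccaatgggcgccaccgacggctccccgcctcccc
Dusp1: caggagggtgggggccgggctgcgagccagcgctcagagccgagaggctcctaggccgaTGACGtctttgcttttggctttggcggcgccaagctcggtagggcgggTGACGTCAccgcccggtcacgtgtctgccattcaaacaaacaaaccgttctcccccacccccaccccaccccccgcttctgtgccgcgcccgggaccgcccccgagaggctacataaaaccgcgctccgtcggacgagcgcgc
Arl4d: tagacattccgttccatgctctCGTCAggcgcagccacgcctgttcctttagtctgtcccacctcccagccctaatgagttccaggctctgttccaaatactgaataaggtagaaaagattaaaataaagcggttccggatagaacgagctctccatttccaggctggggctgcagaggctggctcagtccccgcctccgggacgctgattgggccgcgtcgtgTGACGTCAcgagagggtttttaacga
Fos: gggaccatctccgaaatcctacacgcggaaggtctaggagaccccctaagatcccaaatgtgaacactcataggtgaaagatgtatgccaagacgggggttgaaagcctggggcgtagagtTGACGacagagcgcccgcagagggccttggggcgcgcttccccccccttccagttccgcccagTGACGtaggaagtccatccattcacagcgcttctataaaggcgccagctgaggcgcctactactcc
Npas4: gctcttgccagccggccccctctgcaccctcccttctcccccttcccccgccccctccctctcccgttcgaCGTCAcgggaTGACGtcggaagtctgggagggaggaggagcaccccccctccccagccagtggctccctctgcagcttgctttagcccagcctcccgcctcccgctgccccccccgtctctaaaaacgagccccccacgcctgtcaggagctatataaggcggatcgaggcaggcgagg
Nr4a1: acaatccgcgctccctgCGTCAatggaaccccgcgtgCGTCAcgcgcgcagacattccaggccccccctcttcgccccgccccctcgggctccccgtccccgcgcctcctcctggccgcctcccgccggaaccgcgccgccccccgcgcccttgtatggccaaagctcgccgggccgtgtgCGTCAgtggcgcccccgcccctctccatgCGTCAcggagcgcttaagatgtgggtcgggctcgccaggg
Fosb: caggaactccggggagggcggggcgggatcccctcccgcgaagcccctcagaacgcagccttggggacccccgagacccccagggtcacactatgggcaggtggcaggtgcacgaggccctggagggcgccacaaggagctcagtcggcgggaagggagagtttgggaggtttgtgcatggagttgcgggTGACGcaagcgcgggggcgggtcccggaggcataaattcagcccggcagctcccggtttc
Camk1g: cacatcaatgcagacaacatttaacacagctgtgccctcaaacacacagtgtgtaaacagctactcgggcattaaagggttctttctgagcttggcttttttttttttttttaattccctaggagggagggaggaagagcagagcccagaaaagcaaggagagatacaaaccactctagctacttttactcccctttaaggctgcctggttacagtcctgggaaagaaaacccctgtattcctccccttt
C1ql2: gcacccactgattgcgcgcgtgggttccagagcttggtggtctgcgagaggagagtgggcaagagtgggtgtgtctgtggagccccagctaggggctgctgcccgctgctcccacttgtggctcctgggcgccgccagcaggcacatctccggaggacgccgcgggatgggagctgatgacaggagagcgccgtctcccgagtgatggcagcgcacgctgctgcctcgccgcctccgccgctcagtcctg

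The share of genes with these motifs was counted in each class, as a description without a test. In windows that also include the 50 bases after the start, searched on both strands, TGACG was present in 23 of the 37 genes with a promoter in the class lower only after PTZ (62.2%), 14 of 18 in the class lower in both (77.8%), 22 of 43 unresolved genes (51.2%), 56 of 198 in the class already lower at rest (28.3%), and 35.1% of the 10526 tested genes with a promoter. The full element TGACGTCA, every copy of which also holds the core, was present in 3 of 37 (8.11%), 4 of 18 (22.2%), 6 of 43 (14%), 6 of 198 (3.03%) and 3.59%, respectively. In the class lower only after PTZ the full element lies before the start of Arl4d, Ppp1r15a and Ccnl1, and in the class lower in both before that of Btg2, Dusp1, Errfi1 and Plk2. The AP-1 motif TGACTCA was found in none of the 37 and none of the 18, against 4.26% of tested genes. The EGR motif GCGTGGGCG was found in 2 of 37 and none of 18, against 1.36%. The CArG box, the site of serum response factor, was found in 2 of 37 (5.41%), none of 18, 3 of 43 unresolved genes (6.98%) and 5 of 198 already lower at rest (2.53%), against 1.55%. Classes also differed in base composition, with a median of 27 CpG per window in the class lower only after PTZ, 28 in the class lower in both and 25 in the unresolved class, against 21 in the class already lower at rest and 20.5 in tested genes. TGACG contains a CpG, and the part of CpG content in these shares was not tested.

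The 20 genes called in both fits were lower at rest, with a median of -0.34, and lower still after PTZ, with a median of -1.39. They include further immediate early transcription factors. Btg2, an anti-proliferative partner of mRNA deadenylation, had 3391 and 3032 normalized counts in Control PTZ45 and 267, 333 and 407 in CBP-ifKO PTZ45. Its resting ranges, 159 to 234 in controls and 106 to 151 in CBP-ifKO mice, did not overlap either (-3.26 ± 0.13 after PTZ, adjusted p = 3.79e-128, and -0.55 at rest, adjusted p = 1.22e-05). Junb, an AP-1 subunit, had 1528 and 1231 against 175, 177 and 178 (-2.97 ± 0.14, adjusted p = 6.91e-97), so the 3 CBP-ifKO libraries were nearly alike. Jun itself had 1193 and 1083 against 400, 365 and 466 (-1.47 ± 0.13, adjusted p = 1.46e-27), and none of these CBP-ifKO values exceeded the range of the same genotype at rest, 401 to 486.

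The orphan nuclear receptors of the NR4A family were split between classes. Nr4a1 had 2546 and 2050 normalized counts in Control PTZ45 and 326, 406 and 485 in CBP-ifKO PTZ45 (-2.50 ± 0.14, adjusted p = 1.65e-65; rest -0.50, adjusted p = 0.00149). Nr4a2 had 1848 and 1772 against 474, 443 and 435 (-2.003 ± 0.11, adjusted p = 1.35e-75). Nr4a3 had 1446 and 1120 against 877, 900 and 725 (-0.62, adjusted p = 0.000263), but its interaction was not called (adjusted p = 0.0926) and its call after PTZ was lost without Control PTZ45 replicate 1 (-0.42, adjusted p = 0.333). Egr3, which completes the EGR family, had 1740 and 1554 against 417, 381 and 328 (-2.13 ± 0.12, adjusted p = 1.36e-63). Ptgs2, the inducible cyclooxygenase, had 2274 and 1714 against 429, 422 and 454 (-2.20 ± 0.13, adjusted p = 2.56e-62). Fosl2 and the clock gene Per1 differed by -1.29 and -1.31.

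The class called in both fits also held Dusp1, Rgs2, Rgs4 and Kcnj2. Dusp1, a phosphatase of MAP kinases, had 680 and 617 normalized counts in Control PTZ45 and 135, 213 and 223 in CBP-ifKO PTZ45 (-1.77 ± 0.18, adjusted p = 6.65e-20). Rgs2 and Rgs4 encode proteins that shorten G-protein signals. Rgs2 had 1395 and 1342 against 391, 392 and 422 (-1.77 ± 0.11, adjusted p = 1.46e-52), whereas Rgs4 had the larger resting difference, with 1607 to 2035 in controls and 1063 to 1233 in CBP-ifKO mice at rest and 3437 and 3030 against 1284, 1288 and 1407 after PTZ (-0.70 at rest and -1.29 ± 0.10 after PTZ, adjusted p = 4.33e-25 and 2.3e-37). Kcnj2, an inward rectifier potassium channel, had 790 and 640 against 245, 193 and 199 (-1.75 ± 0.16, adjusted p = 7.74e-26). Dusp6 (-0.99), Btg1 (-0.91), Plk2 (-0.86) and Errfi1 (-1.14) had smaller differences, and the call of Errfi1 was lost in 1 of the 5 fits that left out a PTZ45 library.

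How far the CBP-ifKO level stood above its own rest can be given as a share: the distance of each CBP-ifKO PTZ45 library above the resting CBP-ifKO mean, divided by the distance of the Control PTZ45 mean above the resting control mean. It describes genes whose interaction chose them, and is given without a test. Over 61 genes of the class lower only after PTZ with a Control PTZ45 level at least 1.5 times that at rest, the median share was 9.11%, with an SD of 1.28 over the 3 library medians, and the genes ran from -32% to 22.1%. In this class the median ratio of PTZ45 to rest was 3.18 in controls and 1.16 in CBP-ifKO mice. Over 17 such genes of the class lower in both, the median share was 8.29% ± 1.57 (SD, n = 3 library medians). Arl4d and Gadd45g kept 0.233% ± 0.68 and 0.192% ± 3.27, Fosb 1.97% ± 1.14, Npas4 3.59% ± 1.45, Fos 7.91% ± 2.4, Arc 9.87% ± 6.16 and Egr1 17.3% ± 1.64 (SD, n = 3). Dusp1 and Dusp6 kept 22.8% ± 8.7 and 25.1% ± 6.42, the latter being the largest share in the class lower in both. At -7.04% ± 9.22, Jun did not differ from 0 beyond its spread.

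**Figure D3:**
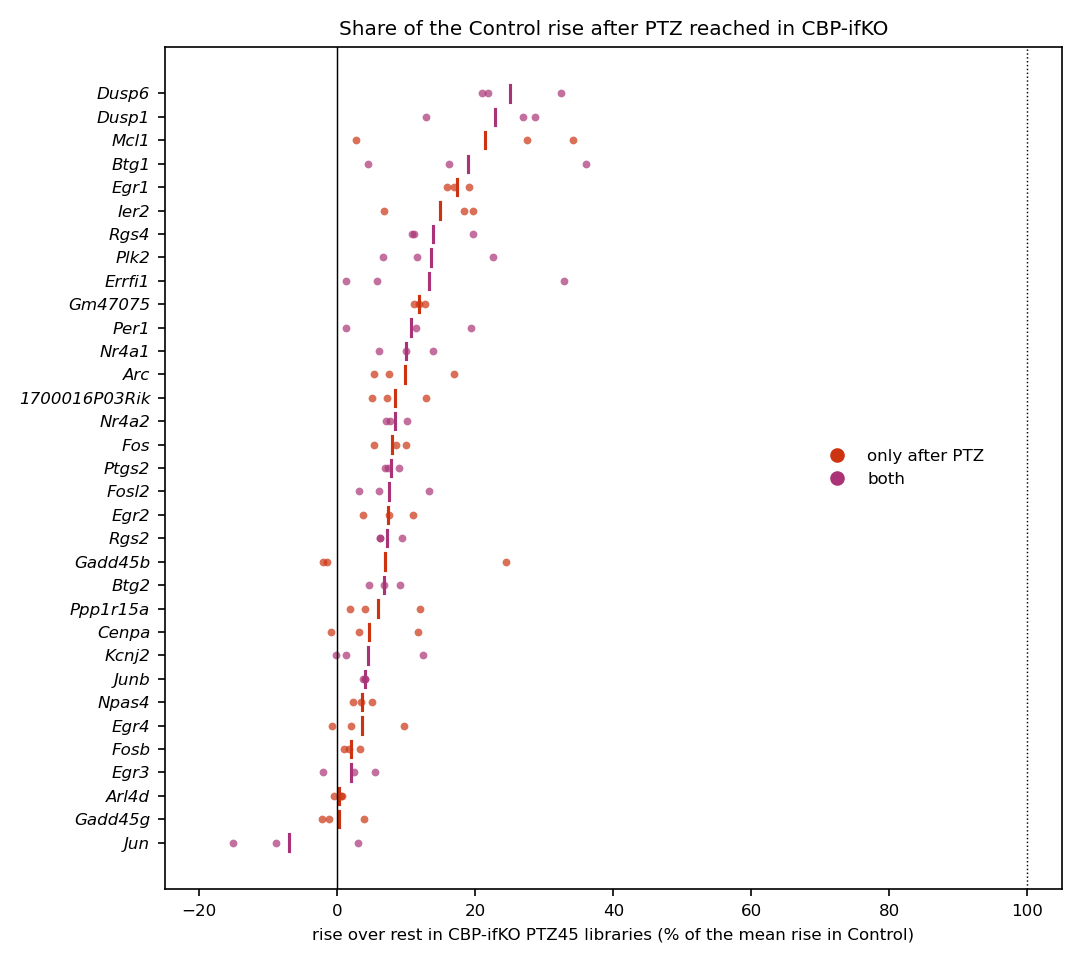
Distance of the CBP-ifKO PTZ45 libraries above the resting CBP-ifKO mean, in percent of the same distance in controls (x axis), for named genes of the classes lower only after PTZ and lower in both, with a point per library, a bar at the mean and dotted and solid lines at 100% and 0. Means run from -7.04 for Jun, through about 0 for Arl4d and Gadd45g, to 25.1 for Dusp6.

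Of the 64 genes lower only after PTZ, 21 do not code for protein, and 18 of these lie inside a coding gene, 14 on the same strand. Over all 15224 genes tested, 2494 do not code for protein, 1592 of them lie inside a coding gene and 1100 on the same strand. Each of the 18 hosted transcripts had a lower log2 fold change than the gene that hosts it. The transcripts were chosen for being lower after PTZ and the hosts were not, so this order is largely set by the choice. Gm47075 (chr13:93312041-93314055) and Gm47088 (chr13:93317427-93319065) lie in introns on the strand of Homer1, which encodes a scaffold of the postsynaptic density. Gm47075 had 1258 and 1020 normalized counts in Control PTZ45, 172, 190 and 180 in CBP-ifKO PTZ45 and 36.9 to 74.1 over the 12 resting libraries (-2.65 ± 0.14, adjusted p = 8.03e-74). Gm47088, picked like the transcripts that follow after its values were seen, had 644 and 498 against 94.6, 109 and 125 (-2.38 ± 0.18, adjusted p = 8.6e-36). The exons of Homer1 itself had 3935 and 3811 against 3117, 2818 and 2971 (-0.38 ± 0.08, adjusted p = 0.000554), with no interaction called (adjusted p = 0.204).

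Ntrk2, the gene of the BDNF receptor TrkB, gave a further case. C630044B11Rik on its strand had 524 and 417 normalized counts in Control PTZ45 and 131, 121 and 96.7 in CBP-ifKO PTZ45 (-2.01 ± 0.19, adjusted p = 2.94e-24). Gm47423, annotated on the opposite strand, had 367 and 262 against 94.6, 104 and 73.1 (-1.79 ± 0.22, adjusted p = 1.96e-13). Ntrk2 itself was not called (-0.14, adjusted p = 0.534). Atp2a2, a calcium pump of the endoplasmic reticulum, was not called (-0.18, adjusted p = 0.287) and holds Gm43360 (-1.24) and Gm43361 (-1.43). Over the 18 hosted transcripts, the host was called lower for 5 and tested without a call for 13. Homer1, the host of 2 of these 5, and Arl5b, the host of 1, lost their calls without Control PTZ45 replicate 1 (adjusted p = 0.113 and 1), and Arl5b also without any of the CBP-ifKO PTZ45 libraries in turn. Whether reads were counted by strand is not given in the sources used here, so intronic and antisense reads of the hosts cannot be told from transcripts of these models.

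The 285 genes already lower at rest made up the largest class. Their median ratio of PTZ45 to rest was 1.05 in controls and 0.987 in CBP-ifKO mice, and the CBP-ifKO level was a median of 77.6% of control at rest and 72.5% after PTZ. Only genes without a called interaction enter this class, so the likeness of these values is partly set by the rule. In the separate resting fits 147 of the 285 were called in Sal and 232 in PTZ0, 142 in both and 48 in neither. Of the 285, 275 code for protein, and the coding ones span a median of 65810 bases in the genome, against 27860 bases for all tested coding genes and 6862 bases for the coding genes lower only after PTZ. Seen from rest, 305 of the 1573 resting genes were called after PTZ, which is 19.4% of them and 70.9% of the PTZ45 genes. Of those 1573, 1511 had a negative value after PTZ, with a median of -0.26.

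Some markers of hippocampal principal neurons were among them. C1ql2 (chr1:120340582-120343174), a secreted synaptic organizer of granule cells of the dentate gyrus, had 275 and 250 normalized counts in Control PTZ45 and 74.7, 77 and 87.2 in CBP-ifKO PTZ45, with 268 to 367 and 77.5 to 137 at rest (-1.72 ± 0.21 after PTZ, adjusted p = 1.04e-13, and -1.63 at rest, adjusted p = 9.96e-36). Wfs1, an endoplasmic reticulum protein that marks CA1, had 707 and 664 against 303, 287 and 335 (-1.15 ± 0.14, adjusted p = 5.09e-15, and -1.08 at rest). For both genes the 5 PTZ45 libraries kept the spacing seen at rest. Of 8 granule cell markers, 3 were called lower after PTZ (C1ql2, Tdo2 and Trpc6), of 7 CA1 markers 4 (Wfs1, Mpped1, Fibcd1 and Man1a) and of 7 CA3 markers 1 (Cpne4), or 37.5, 57.1 and 14.3% against 2.82% of all genes tested. All 7 CA1 markers had negative values after PTZ (median -0.48), as had 6 of 7 at rest (median -0.44). The other lists were mixed. The granule cell marker Prox1 was called higher at rest (0.32, adjusted p = 5.42e-05) and had 0.11 after PTZ (adjusted p = 0.835), and the CA3 markers had a median of -0.04 after PTZ, with 4 of 7 negative. After PTZ none of the 8 markers each of interneurons, astrocytes, oligodendrocytes, microglia and endothelial cells was called. At rest, 5 oligodendrocyte, 3 astrocyte, 2 interneuron and 1 endothelial marker were called lower and no microglial one (9.04% of all genes tested were), and all 8 oligodendrocyte and all 8 microglial markers had negative values. The CA1 markers summed to 5872 and 6367 normalized counts in Control PTZ45 and 4205 to 4292 in CBP-ifKO PTZ45, the granule cell markers to 7479 and 7866 against 6357 to 7089, and the astrocyte markers to 21311 and 23154 against 18909 to 23026. The calls of Tdo2, Fibcd1, Man1a and Cpne4 were each lost when at least 1 PTZ45 library was left out. The part of the CA1 and granule cell markers in the other results was not tested.

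**Figure D4:**
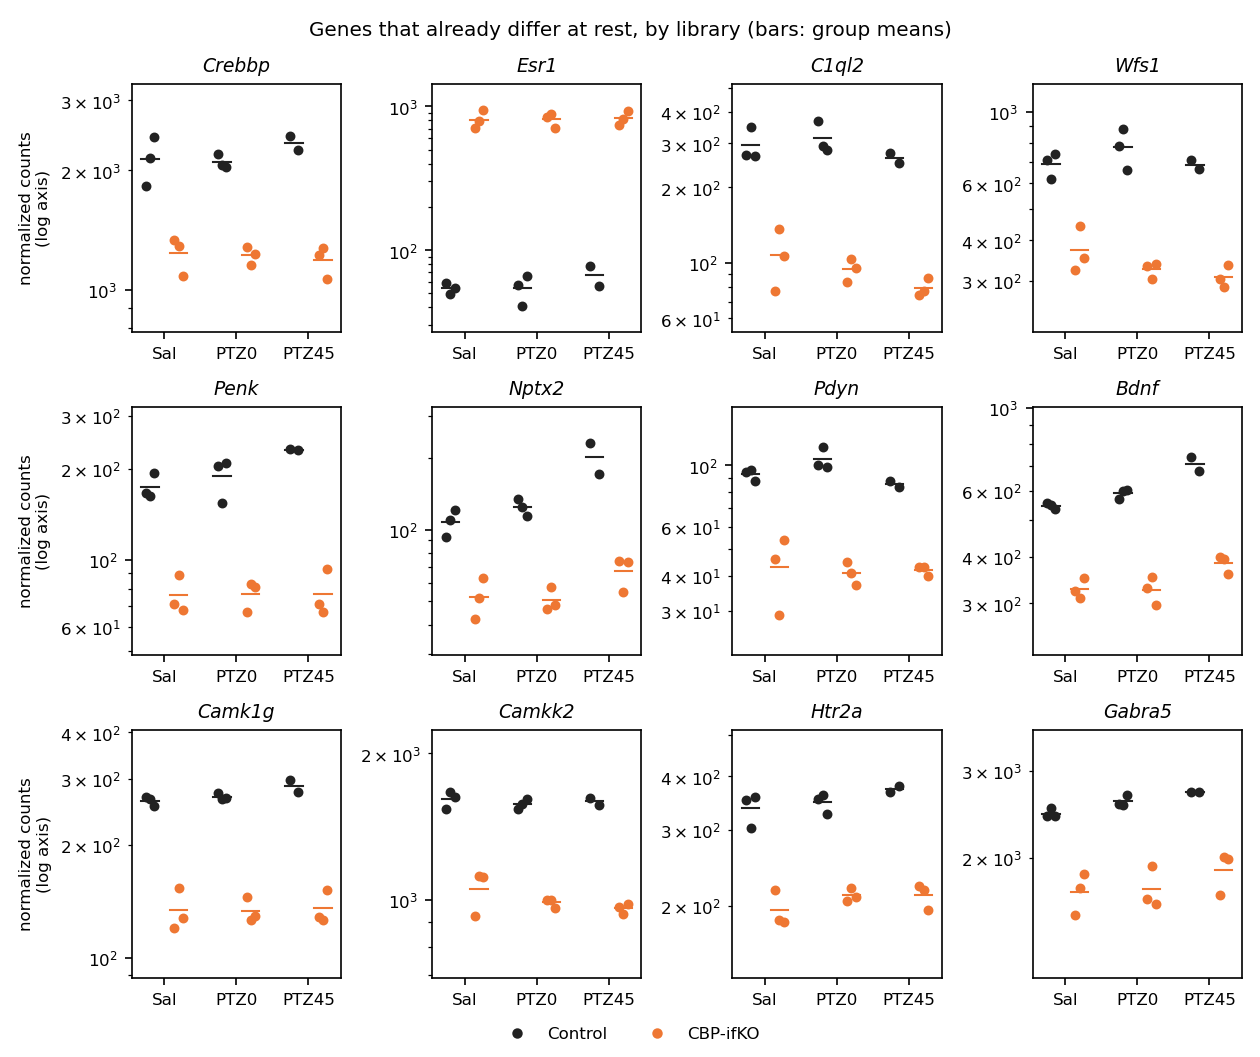
Normalized counts on a log axis in each of the 17 libraries, by treatment and genotype, each point being a library and each bar a group mean, for genes already different at rest, among them Crebbp and the transgene-linked Esr1. Apart from Esr1, which is higher, the CBP-ifKO libraries of Sal, PTZ0 and PTZ45 all lie below the control libraries of the same treatment.

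Neuropeptides and secreted effectors formed another group. Penk, the precursor of enkephalins, had 232 and 230 normalized counts in Control PTZ45 and 71.5, 67 and 93.1 in CBP-ifKO PTZ45 (-1.58 ± 0.22, adjusted p = 5.19e-10; rest -1.27, adjusted p = 8.85e-25). Bdnf (chr2:109674700-109727007), the neurotrophin that signals through TrkB, had 738 and 678 against 398, 394 and 358, with 535 to 602 and 297 to 352 at rest (-0.88 ± 0.13, adjusted p = 1.93e-09; rest -0.79, adjusted p = 1.18e-32). Its interaction was -0.09 (adjusted p = 1). Nptx2, a secreted pentraxin that gathers AMPA receptors, had 231 and 171 against 73.6, 55 and 73.1 (-1.58 ± 0.25, adjusted p = 5.32e-08; rest -1.17). Pdyn, the precursor of dynorphins, had 87.5 and 83.7 against 43.1, 43 and 40.1 (-1.02 ± 0.31, adjusted p = 0.0378; rest -1.19). Grp (-0.96), Vgf (-0.73) and the prohormone convertase Pcsk1 (-0.67) were lower as well. In a list of late-response effectors 11 of 17 tested members were called lower and none higher (64.7%, against 2.82% of all genes tested), with medians of -0.63 after PTZ and -0.56 at rest, and 1 of 18 had a called interaction. Npy (0.28, adjusted p = 0.66), Tac1 (-0.63, adjusted p = 0.31) and Cck (-0.60, adjusted p = 0.28) did not pass the test. The call of Pdyn was lost whichever PTZ45 library was left out, those of Vgf (adjusted p = 0.267) and Pcsk1 (0.156) without Control PTZ45 replicate 1, and that of Grp without either Control PTZ45 library (0.15 and 0.241) or CBP-ifKO PTZ45 replicate 1 (0.0581), and the list count was 5 and 6 without Control PTZ45 replicate 1 or 2.

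Of 25 calcium-binding and calcium-dependent signalling genes, 19 were called lower at rest and 12 after PTZ, against 9.04% and 2.82% of all genes tested, and those 12 were all in the class already lower at rest. Camk1g, a calmodulin-dependent kinase, had 298 and 276 normalized counts in Control PTZ45 and 128, 126 and 152 in CBP-ifKO PTZ45 (-1.09 ± 0.19, adjusted p = 1.35e-06; rest -1.02, adjusted p = 6.36e-31). Camkk2, which phosphorylates and activates such kinases, had 1621 and 1563 against 966, 934 and 980 (-0.73 ± 0.10, adjusted p = 1.72e-11). None of the list was called higher after PTZ. The most abundant kinases of the list did not pass the test, Camk2a at -0.01 (adjusted p = 0.997) and Camk2b at -0.04 (adjusted p = 0.946). Without Control PTZ45 replicate 1 the list count was 6, and without CBP-ifKO PTZ45 replicate 2 it was 8.

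Lists of ion channels, receptors and release genes were read in the same way. Of 37 potassium channel genes, a list that does not hold Kcnj2, 12 were called lower (32.4%, against 2.82% of all genes tested), all 12 already at rest, among them Kcnip3 with 822 and 727 normalized counts against 495, 423 and 519 (-0.69 ± 0.13, adjusted p = 2.07e-05) and the M-current subunits Kcnq3 (-0.42, adjusted p = 0.00645) and Kcnq5 (-0.32, adjusted p = 0.0235). Without Control PTZ45 replicates 1 and 2 in turn this count was 1 and 5, and without CBP-ifKO PTZ45 replicates 1, 2 and 3 it was 7, 4 and 8. Gabra5, the GABAA receptor subunit of extrasynaptic receptors in the hippocampus, had 2710 in both controls and 1679, 2006 and 1988 in CBP-ifKO mice (-0.52 ± 0.10, adjusted p = 2.84e-05) and was the called member among 12 such subunits. Htr2a, a serotonin receptor, had 367 and 380 against 222, 218 and 196 (-0.81 ± 0.16, adjusted p = 4.34e-05), and Htr1a (-0.71) and the histamine receptor Hrh3 (-0.91) were the other 2 members called among 22 modulatory receptors (13.6%, against 2.82% of all genes tested). This count was 1 without Control PTZ45 replicate 2, where Htr1a and Hrh3 lost their calls, and Hrh3 was also lost in 3 further fits. Among 14 glutamate receptor subunits Gria3 (-0.36) and Grin2a (-0.29) were called (14.3%), and neither was without Control PTZ45 replicate 1 or 2. Otof, a calcium sensor of vesicle release, had 110 and 66.3 against 27.3, 34 and 18.9 (-1.71 ± 0.38, adjusted p = 0.000589; rest -1.79), and 5 of 20 release genes were called. The calls of Kcnq5 and Grin2a were lost whichever PTZ45 library was left out, and no release gene was called without Control PTZ45 replicate 1.

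Rasl11a and Trib1, both of the resting class, had a PTZ45 difference well above their resting one without a called interaction. Rasl11a, a small GTPase, had 240 and 175 normalized counts in Control PTZ45 and 59.9, 70 and 71.9 in CBP-ifKO PTZ45 (-1.63 after PTZ, -0.65 at rest, interaction adjusted p = 0.125). Trib1, a pseudokinase, had 166 and 145 against 54.7, 65 and 53.1 (-1.43, -0.66, interaction adjusted p = 0.737). For these the data do not settle whether the gap widened.

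The 61 unresolved genes were called lower after PTZ but met the rule of none of the other classes. Atf3, a stress-responsive factor of the ATF family, had 53.9 and 40.2 normalized counts in Control PTZ45 and 5.26, 17 and 9.43 in CBP-ifKO PTZ45, with 3.65 to 15.3 at rest over both genotypes (-2.15 ± 0.54, adjusted p = 0.00414; interaction -2.54, adjusted p = 0.0815). Zfp36, which promotes decay of AU-rich mRNAs, had 89.3 and 61.9 against 13.7, 31 and 23.6 (-1.73 ± 0.41, adjusted p = 0.00163; interaction adjusted p = 0.139). Scg2, a granin that is the precursor of secretoneurin, had 3235 and 3540 against 2294, 2262 and 2721 (-0.48 ± 0.10, adjusted p = 0.00022). Its call did not hold in every fit that left out a PTZ45 library, and it stood at -0.416 without Control PTZ45 replicate 2. Kinases and phosphatases of the same class were Sik1 (-0.82) and Dusp5 (-0.77), and their calls and that of Zfp36 were lost without Control PTZ45 replicate 1. Among these 61, Ddx5 and 1810026B05Rik, chosen after their values were seen, were called in opposite directions. Ddx5, an RNA helicase, had 10630 and 10740 against 9139, 8446 and 9047 after PTZ (-0.27, adjusted p = 0.0214) but was called higher at rest (0.10, adjusted p = 0.0283), with an interaction of -0.37 (adjusted p = 4.88e-05).

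Described by list, the immediate early genes were lower after PTZ in most of their tested members and the median shifted with them. The list of transcription factors had 16 of 25 called lower (64%), with a median of -1.47 after PTZ and -0.34 at rest, and 14 of 26 had a called interaction (0.4% of all genes did). Immediate early signalling genes had 13 of 17 (76.5%; medians -0.82 and -0.26), growth and stress genes 7 of 10 (70%; -1.24 and -0.05) and synaptic genes 8 of 11 (72.7%; -0.88 and -0.28). All of these stand against 2.82% of the genes tested. Of 7 vascular stimulus-response genes, 0 were called lower and 0 had a called interaction, although 6 had negative values (medians -0.74 and -0.41). By edgeR, and in 1 fit of all 17 libraries, 2 of these vascular genes were called lower. Not every early gene was called. Klf10 (0.01), Bhlhe40 (-0.07) and Crem (-0.21), a relative of CREB, had differences near 0, while Cebpb (-1.05, adjusted p = 0.29), Klf4 (-0.94, adjusted p = 0.265) and Jund (-0.61, adjusted p = 0.13) were low without passing the test. Of 11 genes of CREB and its partners, 2 were called lower (18.2%, against 2.82% of all genes tested), namely Atf4 and Sik1, with Creb1 at -0.01 and Crtc1 at -0.16. Neither was called without Control PTZ45 replicate 1 or 2 or CBP-ifKO PTZ45 replicate 1. Of 22 acetyltransferase and deacetylase genes 2 were called, Crebbp itself and Hdac9 (-0.39 ± 0.11, adjusted p = 0.0164), whose call was lost whichever PTZ45 library was left out. Without Control PTZ45 replicate 1 the counts of the 4 early lists were 14, 6, 5 and 6.

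**Figure D5:**
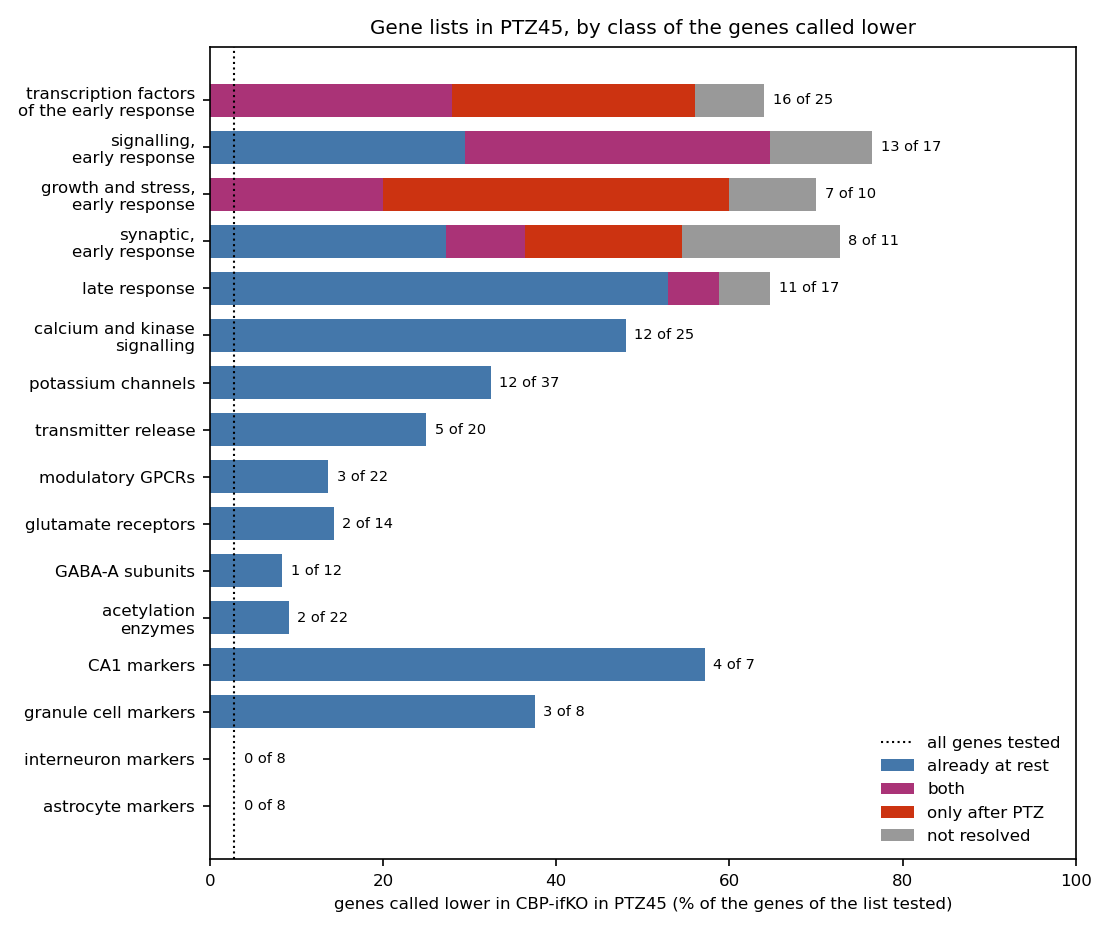
Genes called lower in CBP-ifKO after PTZ as a percentage of the tested members of each list (x axis), with bars split by class, counts beside them and a dotted line at the 2.82% of all genes tested. The red and purple parts, genes lower only after PTZ or in both, are found in the 4 lists of immediate early genes and in 1 late-response gene, whereas the calcium, potassium channel and marker lists hold genes already lower at rest. Some lists are not drawn, among them that of vascular stimulus-response genes, of which 0 of 7 were called lower.

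Genes that the study had listed as lower or higher in CBP-ifKO hippocampus over several screens were also read. The Sal libraries were among those screens, so the direction of these lists at rest is not independent evidence, whereas the PTZ45 libraries took no part in the choice. After PTZ, all 192 genes of the lower list had a negative value (median -0.43, against -0.46 at rest) and 127 were called lower (2.82% of all genes tested were), 126 of them already at rest and 1 in both. Of the 19 genes of the higher list, 8 were called higher after PTZ (0.25% of all genes tested were), and all 19 had positive values, with a median of 0.45. Without the targeted gene Crebbp, 126 of 191 genes of the lower list were called lower. Without Esr1, which the transgene carries in part, 7 of 18 genes of the higher list were called higher.

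Few genes were higher in CBP-ifKO mice after PTZ, and 35 of the 38 had been called higher at rest. Apart from Esr1 (3.62 ± 0.18, adjusted p = 1.73e-84), Arsi, a neighbour of the Camk2a locus, had 13.3 and 15.2 normalized counts in Control PTZ45 and 46.3, 84 and 69.6 in CBP-ifKO PTZ45 (2.23 ± 0.44, adjusted p = 4.34e-05; rest 2.50). By the paper, Arsi lies on the DNA construct from which the creERT2 strain was made, so transgene and CBP loss cannot be told apart for it. Frem3, an extracellular matrix protein, had 37.1 and 32.6 against 97.8, 83 and 105 (1.45 ± 0.31, adjusted p = 0.000381; rest 1.66). Tk1, thymidine kinase, and Rest, a repressor of neuronal genes, were chosen after their values were seen. Tk1 had 23 and 16.3 against 64.1, 57 and 48.3 (1.52, adjusted p = 0.0103), and Eif2ak2, the RNA-dependent kinase PKR, had 113 and 90.2 against 183, 221 and 220 (1.03, adjusted p = 0.000158). Rest had 136 and 169 against 242, 264 and 226 (0.68 ± 0.19, adjusted p = 0.0149), and its difference at rest was 0.37. The call of Frem3 was lost without Control PTZ45 replicate 1 or 2 (adjusted p = 0.0573 and 0.0775) and that of Eif2ak2 without replicate 2 (0.103).

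No gene was called higher only after PTZ in the main DESeq2 fits, whereas 1 was by edgeR's quasi-likelihood test and 1 by DESeq2 with the GC correction. At an unadjusted p under 0.05 the interaction was higher for 236 genes. Of the 3 unresolved higher genes, Col6a4, a collagen chain, had 31 and 21.7 normalized counts in Control PTZ45 and 76.8, 126 and 104 in CBP-ifKO PTZ45 (1.95 ± 0.35, adjusted p = 3.31e-06), but the resting libraries of both genotypes already ran from 13.2 to 95.5. The others were the model Gm43660 and Zic4, a zinc-finger factor that the naming rule did not pick. CBP-ifKO PTZ45 replicate 2 also stood apart in markers of the choroid plexus, whose 8 genes summed to 51865 normalized counts there and to 3353, 3723, 3101 and 3079 in the other 4 PTZ45 libraries, with Ttr at 27696 against 147 to 550. None of the 7 tested markers was called, Col6a4 was also high in the 2 CBP-ifKO libraries with low choroid sums, and among resting libraries 4 had sums of 19707 to 73475.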

How the data were processed

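Total hippocampal RNA was sequenced by the authors as single-end reads, trimmed with Trim Galore 0.6.4, checked with FastQC 0.11.8, aligned with STAR 2.6.1 to GRCm38 and counted over the exons of Ensembl genes with Rsubread. They deposited 1 table of raw counts, 55471 genes by 18 columns, and 1 column that matched no sample was not used. The strand setting is not given in the sources used here.

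The counts were fitted with DESeq2 1.42.0 (R 4.3.3; the study used 1.30.1), with size factors and independent filtering, two-sided Wald tests and calls at a Benjamini-Hochberg adjusted p under 0.05. PTZ45 was fitted alone, rest as treatment plus genotype, and the interaction over 6 groups. Genes with at least 1 count entered. Alternatives were edgeR 4.0.16 (quasi-likelihood test), TMM scaling, a filter of 10 counts in 2 libraries, a correction for GC content, 1 fit of all libraries, replicate blocks, Sal or PTZ0 alone as rest, and leaving out libraries. The fits were tested on simulated data. Replicates differed by more than counting noise, so none was merged. Promoters came from RefSeq (GRCm38.p6), and 99.6% of gene identifiers had an entry in the RefSeq or name tables.

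Named genes were, in each class and direction, the 10 called genes with the largest fold change that averaged 50 normalized counts or more and separated the groups completely, a fixed set of early genes and effectors, and the called members of the gene lists. List members that were not called were picked as examples after their values were seen. The compared groups, the lists and the tests were chosen with earlier results of these data known. The TGACG core was added after the data were examined.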

Additional observations from a re-analysis of the deposited data

Results flagged for a closer look

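These results stand out because the genotype difference after PTZ departed from that at rest by the interaction test (DESeq2 Wald test over 17 libraries, adjusted p under 0.05). In this test 87 genes had a lower value after PTZ than at rest, and 1 had a higher value. For transcription factors that were lower only after PTZ, the interaction on the log2 scale was -4.83 for Fosb, -3.79 for Npas4, -2.91 for Fos, -2.84 for Egr4, -2.83 for Egr2, -1.94 for Ier2 and -1.69 for Egr1. For growth, stress and membrane genes of the same class it was -3.38 for Arl4d, -3.18 for Gadd45g, -2.47 for Cenpa, -1.94 for Arc, -1.85 for Ppp1r15a, -1.2 for Gadd45b and -0.491 for Mcl1. For the non-coding models it was -2.64 for Gm47075 and -2.47 for 1700016P03Rik, the latter of which overlaps exons of Ovca2 on the opposite strand.

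For genes called lower at rest and lower still after PTZ, the interaction was -2.72 for Btg2, -2.37 for Junb, -2.01 for Nr4a1, -1.8 for Ptgs2, -1.79 for Egr3, -1.52 for Rgs2 and -1.5 for Nr4a2. It was -1.22 for Dusp1, -1.12 for Kcnj2, -1.1 for Jun, -0.98 for Per1, -0.957 for Fosl2 and -0.911 for Errfi1. The smallest values were -0.751 for Dusp6, -0.662 for Plk2, -0.612 for Btg1 and -0.589 for Rgs4.

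The 1 gene with a higher value after PTZ was 5830468F06Rik, chosen after its values were seen. It had 17.7 and 6.52 normalized counts in Control PTZ45, 31.5, 39 and 33 in CBP-ifKO PTZ45 and 24.8 to 44.3 at rest, with an interaction of 1.71 ± 0.46 (SE, adjusted p = 0.0467). Its PTZ45 difference alone was 1.49 (adjusted p = 0.114), and both Control PTZ45 libraries lay below every other library. Its interaction was not called in any of the 5 fits that left out a PTZ45 library, in 10 of the 12 that left out a resting library, under the replicate block, or with Sal or PTZ0 alone as rest. The genes called higher without Control PTZ45 replicate 1, 2 in number, were different ones.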

How the results depend on the processing

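Scaling and tool moved the counts of lower genes little. The 430 genes lower after PTZ were 398 by edgeR, 485 with TMM, 411 with the filter and 508 with the GC correction, the 64 genes lower only after PTZ numbered 65 to 69, and the medians of all genes shifted by no more than 0.013 on the log2 scale. The 38 higher genes were 60 by edgeR, and 1 gene became higher only after PTZ by edgeR and 1 with the GC correction, which also raised the 1 higher interaction to 2. In 1 fit of all 17 libraries, which shares the spread of the 6 groups, 677 genes were lower and 108 higher. With Sal alone as rest the classes held 147 genes already lower at rest, 65 lower only after PTZ, 4 in both and 214 unresolved, with 13 higher at rest, and with PTZ0 alone 233, 61, 12 and 124, with 19 higher at rest. Both settings use fewer resting libraries, and both left 0 higher interactions. With PTZ0 alone the median share kept in the class called in both was 10.1% in place of 8.29%. Leaving out resting libraries in the interaction and the classes, and the replicate block of the classes, were chosen after seeing the data.

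Leaving out 1 library gave 143 to 346 lower and 6 to 19 higher genes after PTZ, 1237 to 1794 lower and 646 to 1037 higher genes at rest, and 54 to 94 lower and 0 to 2 higher interactions. The classes held 82 to 288 already lower at rest, 33 to 65 lower only after PTZ, 14 to 22 in both, 14 to 83 unresolved, 5 to 35 already higher at rest and 0 higher only after PTZ in each such fit. Ep300, not called in these fits, had log2 fold changes from -0.0139 without Control PTZ45 replicate 2 to 0.299 without Control PTZ45 replicate 1. Of the named genes, 65, 50, 39, 41 and 29 lost their call without Control PTZ45 replicates 1 and 2 and CBP-ifKO PTZ45 replicates 1, 2 and 3, fits with fewer samples, 13 by edgeR and 76 under the replicate block. Named genes lower only after PTZ or in both kept it in these fits except for Mcl1, Errfi1 and, under the block, Per1 (adjusted p = 0.0883).

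Same-numbered libraries showed little sign of pairing: of 8 correlations between them, from -0.346 to 0.373, 1 was over 0.1. Control PTZ45 replicate 2 has another replicate number in the column names. The pairing and the block in PTZ45 therefore rest on uncertain matches, and 1 CBP-ifKO PTZ45 library has no control partner. The replicate block gave 100 lower and 2 higher genes after PTZ, 587 higher genes at rest, 77 lower and 0 higher interactions, and classes of 42, 37, 17 and 4 lower genes and 2 already higher at rest. The block leaves fewer residual degrees of freedom. At these depths low-count genes such as Atf3, at 3.65 to 15.3 normalized counts at rest, allowed no call at rest.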
